A study of Homo sapiens with 6 samples.

Results

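HSPA5, HERPUD1 and XBP1 are 3 genes of the endoplasmic reticulum stress response, each read here by 1 probe of an Illumina bead array with 47231 probes, on which 20047 genes have a named probe. They were chosen by probe identifier: ILMN_1773865 for HSPA5, ILMN_2374159 for HERPUD1 and ILMN_1809433 for XBP1. The array annotation gave the same name for 2 of the 3. It does not list ILMN_2374159, so the name HERPUD1 rests on the choice of the probe alone. A second XBP1 probe, ILMN_2365465, was found through the annotation and is described beside the first.

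The samples were parental cells of HeyA8, an established human ovarian cancer cell line. They were either left untreated (3 samples) or treated with magnetic fluid hyperthermia, MFH (3 samples), in which magnetic nanoparticles are heated by an alternating magnetic field. Temperature, duration and time of harvest are not given in the sources used here, and no sample with particles alone or field alone was analysed here. The labels do not say whether separate cultures were used as replicates, and p-values cover only the spread among these arrays, which could be technical.

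The endoplasmic reticulum folds proteins that enter the secretory pathway. When unfolded proteins gather there, sensors in its membrane (IRE1, encoded by ERN1, PERK, encoded by EIF2AK3, and ATF6) start the unfolded protein response, which raises chaperones, degradation factors and the secretory machinery. Heat also unfolds proteins in the cytosol and nucleus, where the heat shock factor HSF1 raises another set of chaperones. The comparison of MFH with untreated cells asks whether the reticulum's share of this stress programme responded.

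HSPA5 rose 2.61-fold and XBP1 rose 1.43-fold after MFH, while HERPUD1 did not pass the test. Raw intensities below are mean bead intensities on a linear scale. Levels are log2 values after background correction and quantile normalisation, and changes are differences of mean levels, MFH minus untreated. The test was limma's moderated test over 23615 probes with Benjamini-Hochberg adjustment, and a probe passed at an adjusted p under 0.05. Over all tested probes 5.7% passed as higher and 6.58% as lower.

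HSPA5 encodes BiP, the main Hsp70 chaperone of the reticulum lumen, which also holds the stress sensors inactive. Its raw intensity was 2224, 1691 and 2552 on the untreated arrays 1 to 3 and 8438, 4777 and 5152 on the MFH arrays 1 to 3. Every MFH array lay above every untreated array, and MFH replicate 1 was the highest by far. The mean went from 2156 ± 435 to 6122 ± 2014 (SD, n = 3 each), an exact two-sided permutation p of 0.1, which is the smallest that 3 against 3 arrays can give. MFH replicate 1 was also the brightest array as a whole, with a median raw intensity of 126.5 over all probes against 102.0 to 123.2 on the other 5. The normalised level went from 11.07 ± 0.17 to 12.46 ± 0.23 (SD, n = 3 each), a log2 change of 1.38 ± 0.13 (SE) with a limma adjusted p of 7.9e-06. The 95% interval of the fold change ran from 2.16 to 3.16. In the order of log2 changes HSPA5 was number 90 of the 23615 tested probes.

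XBP1 encodes the transcription factor whose mRNA is spliced by IRE1 under reticulum stress, and the spliced form drives chaperone, degradation and secretory genes. Probe ILMN_1809433 read raw intensities of 3401, 2540 and 3088 on the untreated arrays and 5615, 4011 and 4301 on the MFH arrays. The groups did not overlap. Its normalised level was 11.58 ± 0.025 before and 12.09 ± 0.063 after MFH (SD, n = 3 each), so the replicates lay close together on both sides. The log2 change was 0.51 ± 0.10 (SE), with a 95% interval of 1.24 to 1.65 for the fold change and a limma adjusted p of 0.0027. The second probe, ILMN_2365465, read 3235, 2239 and 3089 on the untreated arrays and 6155, 4149 and 4065 on the MFH arrays. It rose 1.55-fold, a log2 change of 0.63 ± 0.11 (SE) with a limma adjusted p of 0.0016. Both XBP1 probes thus passed in the same direction, and their intervals overlap. The annotation ties them to different transcript records of the gene, but probe positions are not used here, so the spliced and unspliced mRNA cannot be told apart in these values.

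HERPUD1 encodes a reticulum membrane protein that helps to assemble the complex for degradation of misfolded proteins. Probe ILMN_2374159 read 3792, 2898 and 3616 on the untreated arrays and 4718, 4011 and 4156 on the MFH arrays. The 3 MFH arrays lay above the 3 untreated ones, but the gap between the nearest arrays was 219 raw units, against 2224 for HSPA5 and 610 for XBP1. After normalisation the groups did not overlap either, as for HSPA5 and both XBP1 probes. Of all tested probes 12.8% had normalised groups that did not overlap and were higher after MFH, so this order alone is common on these arrays. The share in raw intensity was not computed. The normalised level was 11.78 ± 0.0094 before and 11.99 ± 0.14 after MFH (SD, n = 3 each). The log2 change was 0.21 ± 0.10 (SE), with an unadjusted p of 0.064 and an adjusted p of 0.24 in limma. Its 95% interval ran from 0.991-fold to 1.35-fold, so it includes no change and ends below the 2.16-fold at which the interval of HSPA5 starts.

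**Figure D1:**
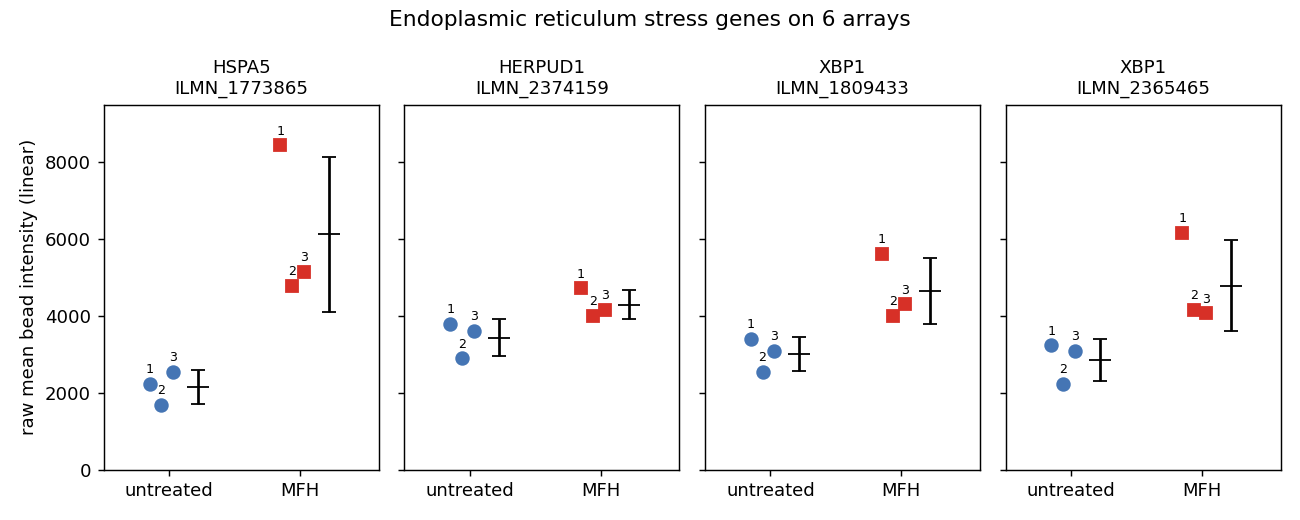
Raw mean bead intensity (vertical axis, linear, from 0) of the 4 probes on the untreated (blue circles) and MFH (red squares) arrays, with replicate numbers above the points. Black dashes and bars give the mean and SD of 3 arrays. The HSPA5 values after MFH lie between 4777 and 8438, all above the untreated values of 1691 to 2552, while the HERPUD1 groups come within 219 units of each other.

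The sizes of the log2 changes of the 3 genes were compared through differences within each array. Within each array the log2 difference of HSPA5 minus XBP1 was -0.62, -0.61 and -0.28 in untreated cells and 0.60, 0.25 and 0.25 after MFH; the 2 probes differ in brightness per molecule, so only the shift between groups can be read. The log2 change of HSPA5 exceeded that of XBP1 by 0.87 ± 0.16 (SE) and that of HERPUD1 by 1.18 ± 0.21 (SE), and that of HERPUD1 was below that of XBP1 by 0.31 ± 0.078 (SE). In each of these 3 pairs the groups did not overlap. Each gave an exact two-sided permutation p of 0.1, with an adjusted value of 0.1 over the 3 pairs. This is the smallest p possible with 3 against 3 arrays, so the test cannot settle whether the changes differ. How often pairs of other probes have groups that do not overlap was not computed. The 95% limma interval of HSPA5 (1.11 to 1.66) lay above those of XBP1 at ILMN_1809433 (0.31 to 0.72) and HERPUD1 (-0.014 to 0.43). The intervals of XBP1 and HERPUD1 overlapped. In raw intensity the MFH arrays had 1 order for all 3 genes, replicate 1 above 3 above 2, except that the second XBP1 probe had 2 above 3. After normalisation MFH replicate 1 was the highest for HSPA5 (level 12.71, against 12.39 and 12.27) and the lowest for HERPUD1 (11.86, against 12.14 and 11.96).

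Each of the 4 probes exceeded background on 6 of 6 arrays and was brighter than 96.9% or more of the probes, so their changes were measured on both sides. HSPA5, both XBP1 probes and HERPUD1 kept their direction and their side of the threshold under each of 16 other ways of processing the arrays, replicates left out included. The log2 change of HSPA5 ranged from 1.26 to 1.48 over these, that of XBP1 from 0.48 to 0.58 at ILMN_1809433 and from 0.57 to 0.72 at ILMN_2365465, and that of HERPUD1 from 0.13 to 0.29.

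**Figure D2:**
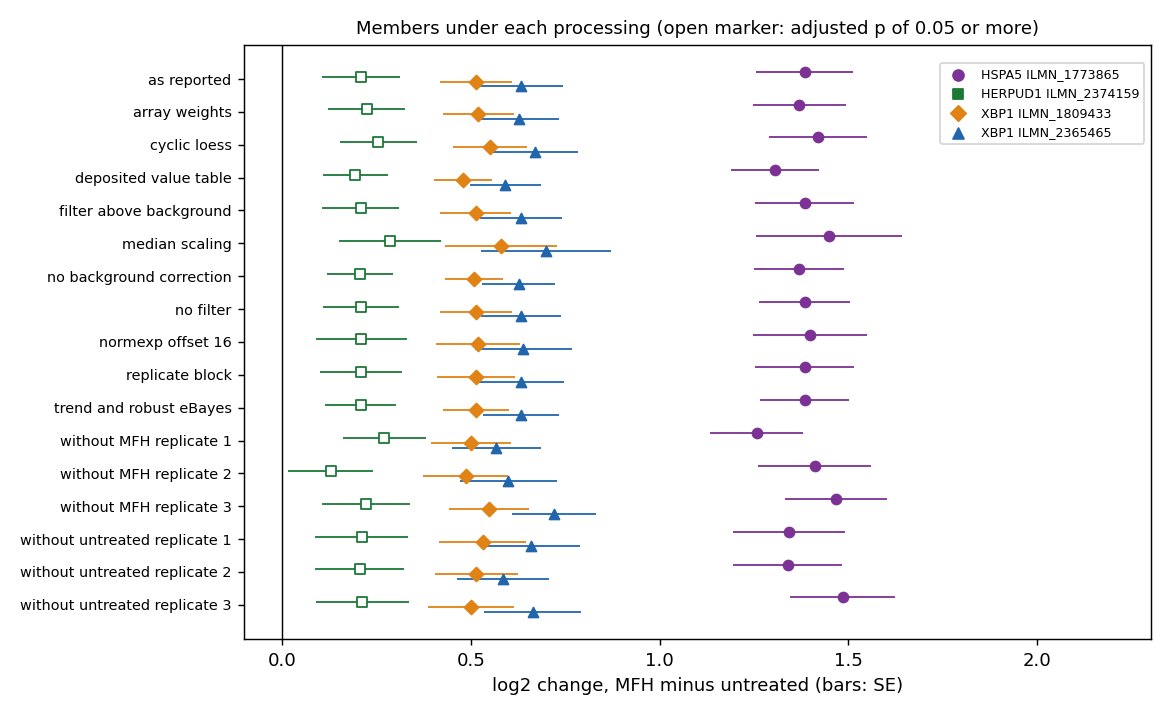
Log2 change, MFH minus untreated (horizontal axis), of the 4 probes under the reported processing and 16 alternatives (rows), with bars of 1 SE. Filled markers passed an adjusted p of 0.05 and open ones did not. HSPA5 stays between 1.26 and 1.48, XBP1 between 0.48 and 0.72 over its 2 probes, and HERPUD1 is open in every row.

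Few other genes of the reticulum moved with HSPA5 and XBP1. Lists were drawn up with earlier results of these data known. They covered the sensors, the chaperones and folding enzymes, the degradation machinery, and translocation with the early secretory pathway, 124 genes in all. Of these 111 had a named probe that was bright enough to be tested, each gene being represented by its brightest probe. After MFH 9 were higher and 2 lower, or 8.11% and 1.8%, beside 6.2% higher and 9.49% lower among all 12597 tested genes. Without HSPA5, HERPUD1 and XBP1 the counts were 7 higher and 2 lower of 108, so 6.48% rose, close to the share among all genes. The median log2 change of the 111 genes was 0.036 and that of all tested genes -0.027. The number of rises depended on the processing: it was 3 with median scaling, 5 with a smaller background offset of 16, 5 without MFH replicate 2, 5 without untreated replicate 1 and 4 without untreated replicate 3. HSPA5, XBP1, SEC24A and UBE2G2 passed under all 16 alternatives, ERP44 under 14, EIF2AK3 and WFS1 under 12, PDIA6 under 10, and DERL1, NFYC and SSR3 under 9. Falls numbered 3 in a pair of settings, with MANF added under trend and robust eBayes and CRELD2 under the replicate block.

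Among the sensors and their partners 3 of 12 tested genes rose and 0 fell in limma, and the counts were also 3 and 0 at an unadjusted p under 0.05. EIF2AK3, the kinase PERK that slows translation, read 224, 197 and 214 in untreated cells and 391, 249 and 266 after MFH, a 1.39-fold rise (log2 change 0.48 ± 0.12 SE, limma adjusted p = 0.016). NFYC, a subunit of the CCAAT-binding factor NF-Y, rose 1.29-fold (adjusted p = 0.023 in limma), and XBP1 itself was the third. ATF6, the sensor that is cleaved in the Golgi, had a log2 change of 0.053 ± 0.098 (SE) and did not pass. MBTPS1, the protease that makes the first cut in ATF6, stood at 0.070 ± 0.13, and CREB3L2, a related membrane-bound factor, at -0.075 ± 0.11. The ERN1 probe was not above background on any array, so no change is given for the IRE1 sensor.

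Of 30 tested chaperones and folding enzymes 3 rose and 0 fell in limma (3 and 2 at an unadjusted p under 0.05). HSPA5, with a log2 change of 1.38, stood apart from the next, ERP44, with 0.48. ERP44, a thioredoxin-family protein that retains clients in the early secretory pathway, rose 1.39-fold (limma adjusted p = 0.011). PDIA6, a disulfide isomerase, went from 1366, 997 and 1281 to 1858, 1443 and 1552 raw units, a 1.28-fold rise (limma adjusted p = 0.026). HSP90B1, the Hsp90 of the lumen also called GRP94, is usually raised together with HSPA5 in reticulum stress. It read 10175, 7982 and 11087 in untreated cells and 11780, 8371 and 9915 after MFH, so its groups overlapped in raw intensity. After normalisation they did not overlap, and the MFH arrays were the lower ones. The log2 change of HSP90B1 was -0.11 ± 0.098 (SE), with a 95% interval from -0.32 to 0.10 and a limma adjusted p of 0.56. DNAJB11, a co-chaperone of HSPA5, had a log2 change of -0.079 ± 0.10 (SE). MANF, a small secreted protein of the stress response, had one of -0.28 ± 0.10 (adjusted p = 0.094 in limma) and did not pass, but passed as lower with trend and robust eBayes (adjusted p = 0.044).

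The degradation machinery gave 1 rise and 1 fall among 28 tested genes, or 3.57% each. Over all tested genes the shares were 6.2% higher and 9.49% lower. Each share of this list rests on 1 gene. Under other processing its rises numbered 0 to 2, while its falls stayed at 1. DERL1, a derlin of the retrotranslocation channel, rose 1.28-fold (limma adjusted p = 0.030). UBE2G2, a ubiquitin-conjugating enzyme of this pathway, fell from 801, 864 and 949 to 691, 582 and 512 raw units. All MFH arrays lay below all untreated arrays, a 1.56-fold fall (log2 change -0.64 ± 0.14 SE, limma adjusted p = 0.0082). FAF2, which recruits the segregase VCP, stood at a log2 change of 0.26 ± 0.10 (SE), and SELENOS, a selenoprotein of the same complex, at -0.25 ± 0.11, and neither passed.

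In translocation and the early secretory pathway 2 of 41 tested genes rose (4.88%) and 1 fell (2.44%). Among all tested genes 6.2% rose and 9.49% fell. The count for this list uses each gene's brightest probe. For SRP14 and SEC23A, which did not pass on it, 1 further probe passed as higher (both named after their values were seen). SEC24A, a cargo-binding subunit of the COPII coat, read 673, 536 and 545 in untreated cells and 1151, 700 and 973 after MFH. It rose 1.57-fold, the largest rise of these lists after HSPA5 (log2 change 0.65 ± 0.11 SE, limma adjusted p = 0.0016). SSR3, of the complex that assists the translocon, rose by 0.38 ± 0.11 (SE) on the log2 scale (adjusted p = 0.038 in limma). WFS1, wolframin of the reticulum membrane, fell by 0.42 ± 0.11 (SE) on the log2 scale (limma adjusted p = 0.017). The channel subunit SEC61B, the signal recognition particle protein SRP9 and the glycosylation subunit DAD1 had log2 changes between -0.069 and 0.077 and did not pass.

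**Figure D3:**
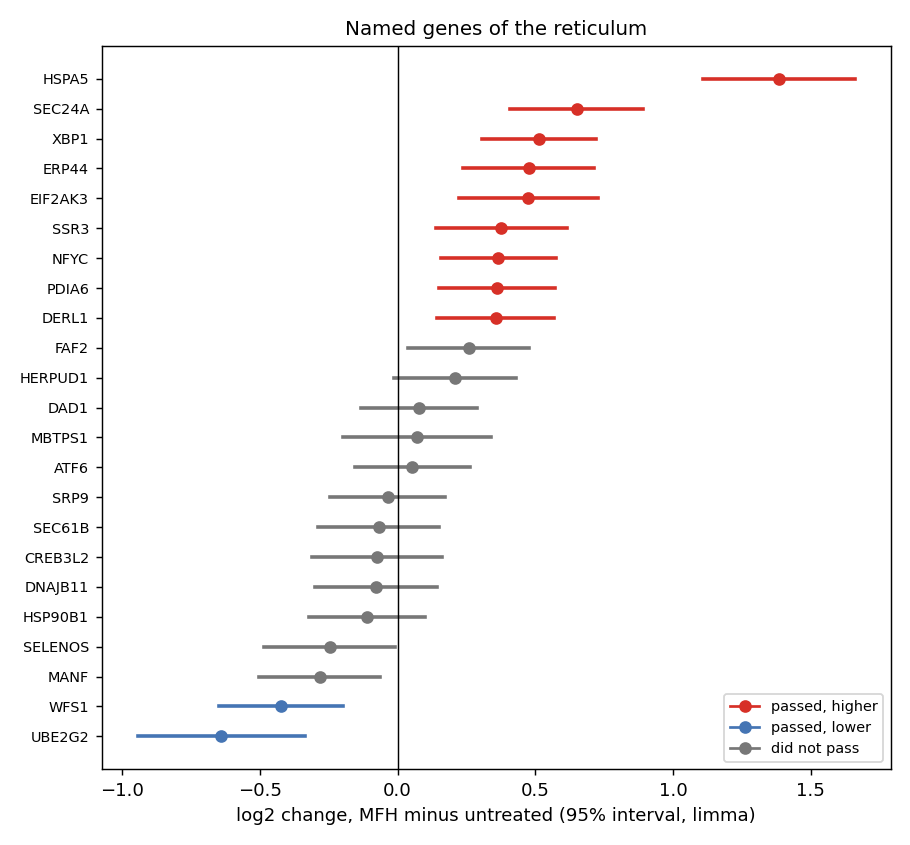
Log2 change, MFH minus untreated (horizontal axis), with 95% limma intervals for the named genes of the 4 reticulum lists, ordered by size. Red genes passed as higher, blue as lower, and grey ones did not pass. HSPA5 lies at 1.38, and SEC24A, the next, at 0.65.

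The other branches of the stress programme differed in how many of their genes rose. Their lists were also written with earlier results of these data known, so the shares below are descriptions and no test. On a list of heat shock genes, mainly of the cytosol and nucleus, 25 of 32 tested genes rose and 0 fell in limma. At an unadjusted limma p under 0.05 the counts were 26 and 1. The list also holds the mitochondrial HSPE1 and the ubiquitin gene UBB, which rose, and the mitochondrial HSPD1 and the factor HSF1. Rises thus made up 78.1%, beside 6.2% among all tested genes, and the list's median log2 change was 1.26. HSPA6, an inducible Hsp70, rose 56.0-fold, and the Hsp40 co-chaperones DNAJA4, DNAJB4 and DNAJB1 rose 11.6-fold, 9.93-fold and 8.79-fold. HSPA4L, an Hsp110-type protein, rose 7.06-fold, and the limma adjusted p of these 5 was at most 1.5e-10. The small chaperone CRYAB, above background on 0 of 3 untreated arrays, rose from a raw intensity of 109 ± 9.3 to 1900 ± 487 (SD, n = 3 each, limma adjusted p = 5.8e-11), and no fold is given because the untreated level is not well above background. Some of these probes ended close to the brightest value on their array: HSPA6 read 22277 on MFH replicate 1, where the brightest probe read 23590, and DNAJB1 read 23450 on MFH replicate 3, where it read 24583. Whether their folds were capped was not tested. HSP90AA1, the constitutive HSPA8 and the mitochondrial HSPD1 (1.13-fold at its brightest probe) did not pass, although 2 further probes of HSPD1 did. The HSP90AA1 probe read 21994, 22544 and 21981 on the MFH arrays, beside array maxima of 23590, 22634 and 24583, and HSPA8 read up to 22712, so these values leave little room to show a rise. The log2 change of HSPA5, 1.38, lay near the median of this list, and the Hsp40 protein DNAJA1, at 1.29, came close to it.

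Of 26 genes of the PERK and ATF4 branch 8 rose and 0 fell in limma (11 and 1 at an unadjusted p under 0.05). Rises thus made up 30.8%, beside 6.2% among all tested genes, on a list written with earlier results of these data known. STC2, a secreted glycoprotein, rose 1.94-fold, GADD45A 1.53-fold, SLC3A2 1.46-fold, SESN2 1.44-fold and CHAC1 1.40-fold, while MTHFD2 rose by 0.58 on the log2 scale. CHAC1 did not pass with median scaling (limma adjusted p = 0.058), nor SESN2 without untreated replicate 3 (limma adjusted p = 0.058). The factor ATF4 itself (log2 change -0.092 ± 0.12 SE), CEBPB (-0.28 ± 0.11) and PHGDH (-0.011 ± 0.11) did not pass. Of 28 tested proteasome subunits 0 passed in limma in either direction (2 higher and 2 lower at an unadjusted p under 0.05), and the brightest, PSMB7, PSMA6 and PSMC1, had log2 changes of 0.12, 0.049 and -0.011. This count rests on the brightest probe of each gene: 2 further probes of PSMC4 (1.57-fold at its brightest, adjusted p = 0.058 in limma) and 1 of PSMC6 passed as higher, both genes named after their values were seen. Other processing called up to 2 subunits higher and 1 lower.

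**Figure D4:**
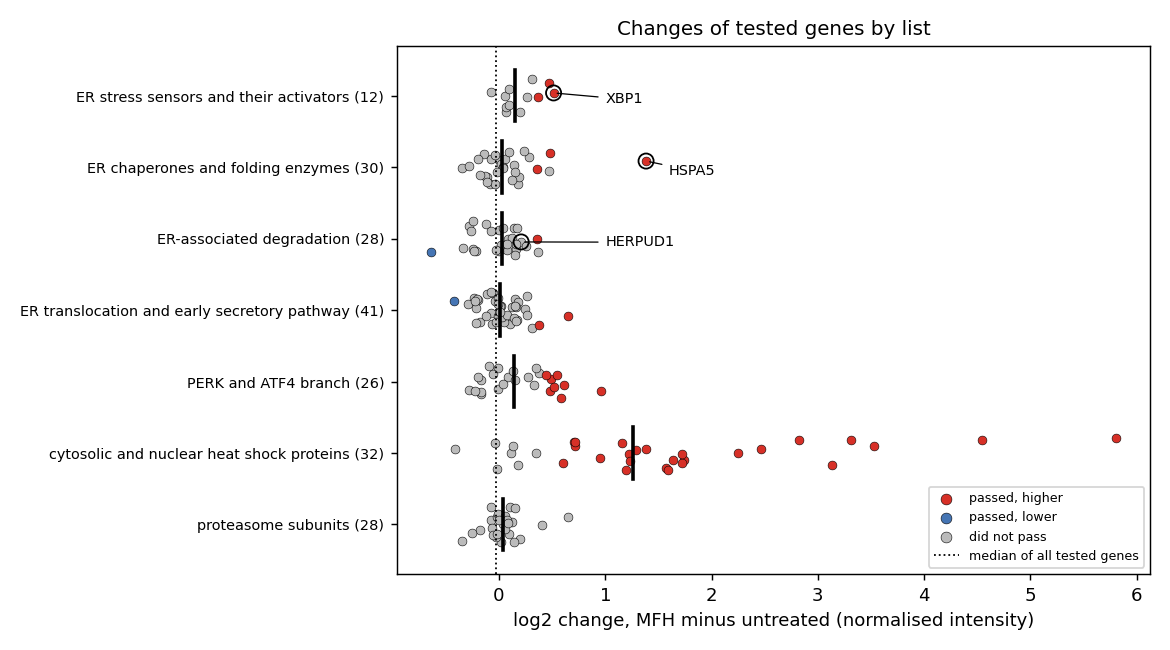
Log2 change, MFH minus untreated (horizontal axis), of every tested gene of 7 lists (rows, number of tested genes in brackets), with the list median as a black bar and the median of all tested genes as a dotted line. HSPA5, XBP1 and HERPUD1 are ringed. HSPA5 lies alone at 1.38 among the reticulum genes, whereas the heat shock list has its median at 1.26.

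Promoters of reticulum stress genes are known for a response element, ERSE, that is bound by NF-Y at CCAAT and by ATF6 or XBP1 at CCACG, and for a shorter form, ERSE-II. The windows of the 3 genes are shown because 2 of them rose and because they differ in which form they hold letter for letter. Each runs from 250 bases before to 50 bases from the annotated transcript start (RefSeq, GRCh38.p14), 5′ to 3′ on the gene's strand, with the element in capitals.
HSPA5, chr9:125241294-125241593, minus strand: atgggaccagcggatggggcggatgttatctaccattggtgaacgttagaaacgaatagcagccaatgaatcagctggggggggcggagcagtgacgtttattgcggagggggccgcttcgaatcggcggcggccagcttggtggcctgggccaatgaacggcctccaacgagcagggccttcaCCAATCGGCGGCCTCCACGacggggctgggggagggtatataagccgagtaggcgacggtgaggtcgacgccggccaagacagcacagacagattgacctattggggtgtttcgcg
XBP1, chr22:28800520-28800819, minus strand: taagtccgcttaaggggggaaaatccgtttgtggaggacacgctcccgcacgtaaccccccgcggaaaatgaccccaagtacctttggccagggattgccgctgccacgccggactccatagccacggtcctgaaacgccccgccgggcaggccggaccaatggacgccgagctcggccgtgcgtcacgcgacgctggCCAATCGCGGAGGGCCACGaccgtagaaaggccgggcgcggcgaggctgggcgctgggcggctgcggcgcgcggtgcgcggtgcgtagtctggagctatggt
HERPUD1, chr16:56931892-56932191, plus strand: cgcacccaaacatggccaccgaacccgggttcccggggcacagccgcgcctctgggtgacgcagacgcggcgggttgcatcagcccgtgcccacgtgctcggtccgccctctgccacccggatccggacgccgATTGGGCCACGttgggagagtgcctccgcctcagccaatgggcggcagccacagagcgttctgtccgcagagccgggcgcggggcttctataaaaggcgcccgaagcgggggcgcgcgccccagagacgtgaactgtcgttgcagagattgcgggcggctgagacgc

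The ERSE was searched as CCAAT, any 9 bases and CCACG, and the ERSE-II as ATTGG, any 1 base and CCACG, on both strands. HSPA5 holds 1 ERSE from base -66 to -48 and XBP1 1 from base -52 to -34, counted with the annotated start as 0. HERPUD1 holds no exact ERSE and 1 ERSE-II, from base -117 to -107. Inexact forms were not searched, and the HERPUD1 window also holds CCAAT, 9 bases and CCACA, which is 1 letter away from an ERSE. A second window of XBP1, at another annotated start, held neither. The letters are rare: 0.0769% of the 35116 promoter windows hold the ERSE and 0.0541% the ERSE-II. A heat shock element, searched as GAA, TTC and GAA with any 2 bases between them, was in none of the 3 genes' windows, in 0.49% of all windows and in 8 of the 31 heat shock genes that have a window. A match is a run of letters and not a measured binding site.

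Of the listed reticulum genes 8 hold an ERSE, and 3 of these passed as higher. The elements are shown with the fixed letters in capitals, to set genes that rose beside genes that did not pass.
HSPA5: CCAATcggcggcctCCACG
XBP1: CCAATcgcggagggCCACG
PDIA6: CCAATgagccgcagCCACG
HSP90B1, distal: CCAATcggaaggagCCACG
HSP90B1, proximal: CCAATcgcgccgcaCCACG
CALR: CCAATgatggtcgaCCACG
CANX: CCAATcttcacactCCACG
CRELD2: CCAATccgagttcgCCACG
ERO1B: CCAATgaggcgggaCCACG

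The genes that rose were HSPA5, XBP1 and PDIA6. Of the other 5, the log2 changes were -0.11 for HSP90B1, -0.0012 for the lectin chaperone CALR, 0.14 for its membrane-bound relative CANX, -0.35 for CRELD2 and 0.19 for the oxidase ERO1B. CALR's 95% interval ran from -0.30 to 0.30 and that of CANX from -0.073 to 0.36, both below the interval of HSPA5, which starts at 1.11. The interval of XBP1 (0.31 to 0.72) overlaps those of CANX and ERO1B (-0.048 to 0.42) and lies above those of CALR, HSP90B1 and CRELD2. That of PDIA6 (0.15 to 0.57) overlaps CALR, CANX and ERO1B and lies above HSP90B1 and CRELD2. The other 2 listed genes with an ERSE-II beside HERPUD1, the chaperone HYOU1 (log2 change -0.14 ± 0.16 SE) and the HSPA5 co-factor SDF2L1 (-0.085 ± 0.14), did not pass either. Among all genes with a promoter window, 25 hold an ERSE, of which 16 were tested, and 6 of these (37.5%) rose and 0 fell, beside 6.2% higher among all tested genes. Without HSPA5 and XBP1, whose rise was known, it was 4 of 14 (28.6%). PDIA6, 1 of these 4, had also passed already in the list counts above, and it passed under 10 of 16 alternatives. The 3 outside the lists were SERP1, a translocon-associated stress protein (1.53-fold, limma adjusted p = 0.023), TRIM5 (1.52-fold, adjusted p = 0.0023) and FRG2C (1.68-fold, adjusted p = 0.0084), named after their values were seen. These 3 genes were not followed through the other ways of processing. Whether the element has a part in any of the rises was not tested. Of 12 tested genes with an ERSE-II 1 rose and 1 fell.

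**Figure D5:**
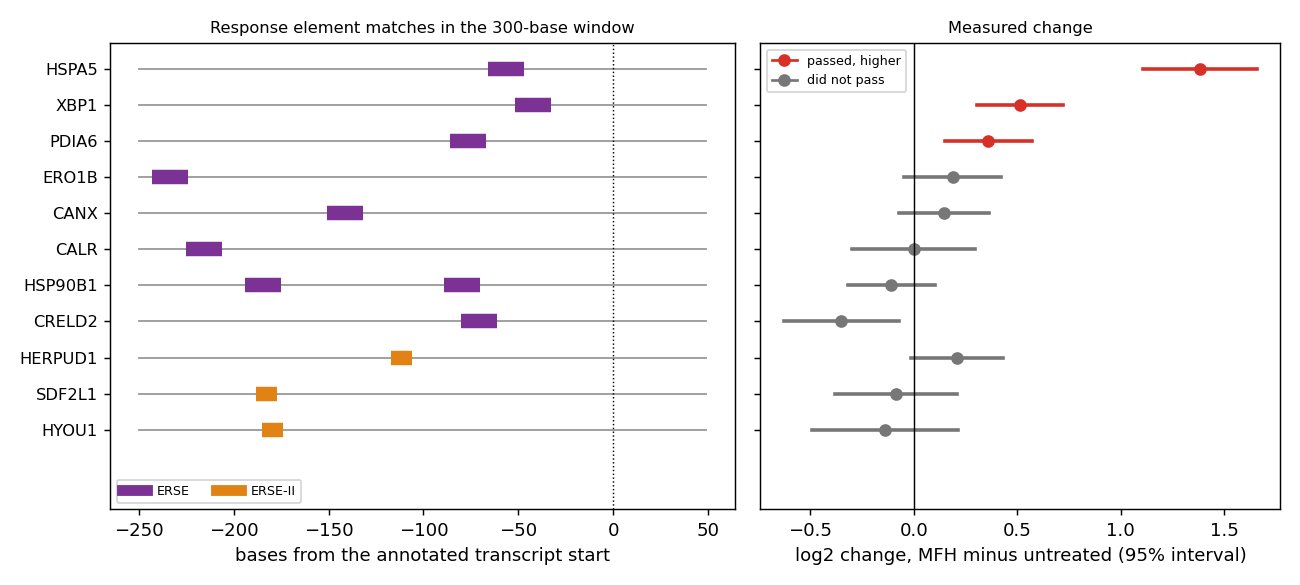
Left, position of ERSE (purple) and ERSE-II (orange) matches in the promoter windows of listed reticulum genes, in bases from the annotated start (dotted line). Right, their log2 change, MFH minus untreated, with 95% limma intervals. HSPA5, XBP1 and PDIA6, in red, passed as higher, while the other 8 genes, in grey, did not pass.

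The probes whose 6-array pattern was most like that of each gene were found by the Euclidean distance between log2 levels, each centred on its untreated mean. For HSPA5 they were DNAJA1 (distance 0.32, 2.44-fold), DNHD1 (0.33, 2.59-fold), AP4B1 (0.34, 2.64-fold) and MBNL2 (0.36, 2.95-fold), over 6 arrays. For XBP1 they were SLBP (0.072, 1.47-fold), CASP1 (0.085, 1.43-fold), ADIPOR2 (0.089, 1.42-fold) and DNAJB14 (0.091, 1.40-fold). None of these 8 genes is on the reticulum lists, although DNAJB14 encodes a J protein of the reticulum membrane. The distance takes in the size of the change, and the listed gene next to HSPA5, SEC24A, changed by 0.65 (log2). The lists hold 111 of the 12597 tested genes, so this absence says little. For HERPUD1 the nearest were SNAPC5, ZNF112, DYDC2 and FBXW10B, at distances of 0.071 to 0.096, and none of the 4 passed. The replicates of HSPA5 also spread more than those of XBP1 and HERPUD1.

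The label of the cells was set against markers. VIM (raw 15824 in untreated cells), CDH2 (3377), KRT8 (3448) and PAX8 (1914) exceeded background on each array. So did the dimmer KRT7, KRT18, KRT19, EPCAM, WT1 and MSLN, whereas MUC16 was above it on 1 array and the epithelial cadherin CDH1 on none. Of 7 leukocyte markers with a probe, PTPRC, CD3D and CD3E exceeded background on 0 arrays, MS4A1 on 1, LYZ on 3, CD14 on 4 and CD68 on 6. CD14 had a log2 change of 0.55 and did not pass (limma adjusted p = 0.054). Of 4 erythroid markers, HBB and ALAS2 exceeded it on 0 arrays, HBA1 on 1 and HBA2 on 5. Among 5 endothelial markers, VWF exceeded background on 0 arrays, TEK on 1, KDR on 4, PECAM1 on 5 and CDH5 on 6. The summed raw intensity of 7 leukocyte markers was 2046 to 2578 in untreated cells and 2190 to 3245 after MFH, most of it from CD68, and that of 5 endothelial markers was 574 to 691 and 619 to 857. PAX8, an ovarian lineage factor, fell by 0.64 ± 0.098 (SE) on the log2 scale (limma adjusted p = 0.00063) and KRT8 by 0.34 ± 0.10 (adjusted p = 0.038). In these bulk samples, fewer cells with a transcript and less of it per cell cannot be told apart, and the part of such shifts in the reticulum results was not tested.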

How the data were processed

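The deposited intensities are mean bead signals on a linear scale, exported with BeadStudio per the submitters' processing notes and not normalized per the file headers. A second deposited table holds the authors' log2 values of the same arrays. Its median is 6.73 on untreated array 1, its values follow the scanner values of the same array (lowest Pearson r 0.999) in the same direction, and it shows no centring of genes. Its background step stays unknown, and it served as an alternative only. No column was left unused.

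Intensities were corrected with normexp (saddle fit, offset 50), quantile normalised and put on the log2 scale. Probes with a mean level above the median of all 47231 were tested, 23615 in all, with lmFit and eBayes in limma 3.58.1 under R 4.3.3, group being the only term. Benjamini-Hochberg adjustment ran over all tested probes. The offset draws the fold changes of dim probes towards 1. The number of arrays limits precision: the median SD of a probe about its group mean was 0.13 (log2). A probe was above background on an array when its raw intensity exceeded the mode of that array's intensities by 2 SD. The procedure was tested on simulated intensities.

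The annotation names 1 gene for 30113 probes, several for 8, and does not list 17110. Always named were the 3 genes and their other probes. From each list up to 6 passing genes in each direction with groups that did not overlap were named, by size of change, and the 3 brightest that did not pass. The probes, genes and lists were chosen with earlier results of these data known. The ERSE and ERSE-II genes were described after the members' values were seen. Labels name no hybridisation batch, so none was fitted. Promoter windows are RefSeq's, and no genome was used.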

Additional observations from a re-analysis of the deposited data

How the results depend on the processing

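HSPA5, HERPUD1 and both XBP1 probes kept their direction and side of the threshold under 16 alternatives. Their limma adjusted p-values were at most 0.00056 for HSPA5, 0.041 for XBP1 at ILMN_1809433 and 0.034 at ILMN_2365465, each with median scaling, and 0.13 to 0.58 for HERPUD1. Leaving out each array in turn gave log2 changes of 1.26 to 1.48 for HSPA5, 0.49 to 0.55 for XBP1 at ILMN_1809433 and 0.13 to 0.27 for HERPUD1. Over all probes 2902 passed, 1030 with median scaling, 1479 at an adjusted p under 0.01 (by construction) and 1995 to 2589 with an array left out. Of the reticulum genes 9 were higher and 2 lower. The counts were 3 and 1 with median scaling, 3 and 1 at an adjusted p under 0.01, 5 higher with an offset of 16, 3 lower with trend and robust eBayes and with the replicate block, and 4 to 8 higher and 1 to 2 lower with an array left out. The cause was not tested. Genes near 0 that had not passed changed sign. Median scaling gave log2 changes of 0.0035 for DNAJB11, 0.041 for SEC61B, 0.053 for SRP9, 0.013 for ATF4, 0.11 for PHGDH and 0.11 for PSMC1. Cyclic loess gave 0.0016 for SRP9, 0.045 for PHGDH and 0.055 for PSMC1, and array weights gave 0.028 for PHGDH and 0.016 for PSMC1. With an array left out the values were -0.058 to 0.20 for MBTPS1, -0.13 to 0.0048 for CREB3L2, -0.082 to 0.086 for PHGDH and -0.060 to 0.050 for PSMC1. With a replicate block limma called 2870 probes, HSPA5 and XBP1 among them. Deviations from the group means correlated, between arrays of one number, at 0.0039, 0.060 and -0.036. They were taken after quantile normalisation, which removes effects shared by a whole array, so they cannot decide whether the numbers pair the samples. Median raw intensities were 113.7, 102.6 and 112.2 on untreated arrays 1 to 3 and 126.5, 102.0 and 123.2 on MFH arrays 1 to 3.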
